A study of Mus musculus with 8 samples.

Results

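The genes described here are 49 components of the DNA replication machinery and of deoxynucleotide synthesis, chosen as a list of symbols from the 48321 gene symbols counted in each of 8 libraries. All 49 were found under their own symbol and all 49 were among the 12597 genes with enough counts to be tested. The libraries came from bulk RNA sequencing of splenic CD8+ T cells, the cytotoxic lineage of T lymphocytes, taken from C57BL/6 mice. According to the text of the series, the animals carried *Satb1* F/F, a pair of floxed alleles of the chromatin organiser SATB1, together with *E8I-cre*, a recombinase transgene driven in cells of the mature CD8 lineage. Each library was labelled WT or KO and day 0 or day 5, with 2 libraries in each of the 4 combinations. The labels do not say whether WT animals lacked the transgene or the floxed alleles, and they do not say whether the libraries came from separate animals, so the tests measure the spread between libraries, which may be technical. The mice were of either sex and on average 8 to 12 weeks old by the study's methods. The same methods stimulate T cells with anti-CD3ε and anti-CD28 antibodies and then grow them with IL-2, and for an exhaustion condition they keep the cells on the antibodies for a further period. Which of these cultures the day 5 cells received is not stated in the labels.

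Unstimulated T cells rest outside the cell cycle and hold little of the replication machinery, and antigen receptor stimulation brings them into repeated rounds of S phase. Before S phase the origin recognition complex, with CDC6 and CDT1, loads the ring of MCM2 to MCM7 on DNA, and the kinase CDC7 with its partner DBF4 then lets CDC45 and the GINS complex join the ring to form the active helicase. DNA polymerase alpha with primase starts each strand, the clamp PCNA is placed by replication factor C, the polymerases delta and epsilon extend the strands, and ribonucleotide reductase, thymidylate synthase and thymidine kinase supply the building blocks. Many of these genes are textbook targets of the E2F transcription factors, which the retinoblastoma protein family restrains in resting cells.

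Because that regulation acts at promoters, the promoter windows of the list were read from RefSeq (mouse build GRCm38.p6). Each window runs from 250 bases before to 50 bases after a transcription start. A window was found for 40 of the 49 genes. The words TTTCCCGC, TTTGGCGC and TTCCCGCC were searched on both strands as E2F words; the first and the last share letters and can overlap. At least 1 of them was present in 16 of the 40 genes (40%), against 3.69% of all 27025 genes with a window. The CCAAT box was present in 22 of the 40 (55%), against 41.1% of all genes. The word TTTGAA, a form of the cell cycle homology region, was present in 6 of the 40 (15%), against 20.2%. The sequences given are those of the 3 genes with the lowest FDR for culture in WT among those with an E2F word, namely *Cdc6*, *Rrm1* and *Mcm3*, and *Rrm2*, which had the lowest FDR among those without. Capitals mark E2F words and CCAAT boxes on either strand, and each sequence reads in the direction of the gene.
Cdc6, chr11:98907991-98908150, plus strand: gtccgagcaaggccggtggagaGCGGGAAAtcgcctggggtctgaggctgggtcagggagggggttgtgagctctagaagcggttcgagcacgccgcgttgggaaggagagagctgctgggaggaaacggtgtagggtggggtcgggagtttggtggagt
Rrm1, chr7:102441535-102441694, plus strand: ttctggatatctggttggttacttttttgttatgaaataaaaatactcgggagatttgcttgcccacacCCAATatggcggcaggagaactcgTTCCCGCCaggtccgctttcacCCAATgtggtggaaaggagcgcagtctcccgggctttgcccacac
Mcm3, chr1:20820266-20820295, minus strand: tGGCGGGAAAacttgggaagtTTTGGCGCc
Rrm2, chr12:24708094-24708253, plus strand: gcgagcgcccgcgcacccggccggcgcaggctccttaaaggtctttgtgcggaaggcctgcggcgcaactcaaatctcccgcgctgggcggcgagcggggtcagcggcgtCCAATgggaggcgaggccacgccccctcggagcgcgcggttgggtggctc

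The *Cdc6*, *Rrm1* and *Rrm2* stretches are the 160 bases that end just before the RefSeq start, which for *Cdc6* and *Rrm2* lies inside the gene as GENCODE draws it. The *Mcm3* stretch is 30 bases long and begins 18 bases after the start, where 2 overlapping E2F words are followed by a further one. A word match describes the letters of a window and is not a measured binding site.

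The depth of the libraries lay between 4170126 and 11117971 counts assigned to genes, with the first KO library at day 0 the deepest. Between 21.2% and 24.5% of the counted reads were assigned to a gene, and 31.8% to 37.4% were set aside because they did not align uniquely. *Satb1* itself was measured at 97.8 and 91.6 CPM (counts of a gene relative to the TMM-scaled size of the library) in the WT libraries at day 0 and at 144 and 125 CPM in those labelled KO. At day 5 it was measured at 96.5 and 116 CPM in WT and at 56.5 and 62.3 CPM in those labelled KO. The difference of KO from WT on the log2 scale was 0.51 (SE 0.15, FDR 0.125) at day 0 and -0.84 (SE 0.15, FDR 0.0162) at day 5. At day 0 the counts were higher, not lower, under the KO label, although that difference did not pass. Counts over the whole gene cannot show whether the floxed exons were lost. Every genotype difference below is therefore a difference between libraries labelled KO and libraries labelled WT. All 7 markers of CD8 T cells were detected in every library, at a summed level of 13534 to 14673 CPM at day 0 and 8907 to 9922 CPM at day 5. The B cell list summed to 121 to 166 CPM at day 0 and 67.2 to 84.1 CPM at day 5, nearly all of it *Cd79b*, while *Ms4a1* did not exceed 0.37 CPM. The myeloid list summed to 10.3 to 19.0 CPM at day 0 and 4.06 to 5.87 CPM at day 5, and the CD4 T cell, NK cell and erythroid lists did not exceed 3.0, 1.43 and 0.68 CPM. The part that these lower lists play in the changes with day was not tested. In bulk RNA a larger share of cells that express a gene and more RNA per cell cannot be told apart.

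The first comparison asked how the replication genes changed between day 0 and day 5 in WT cells. Of the 49 genes, 43 rose, none fell and 6 did not pass the test (edgeR quasi-likelihood test, two-sided, FDR under 0.05 by Benjamini-Hochberg over all genes tested). Over all 12597 genes, 24.7% were called higher and 48.3% were called in either direction. The rise was over 2-fold for 37 of the 49, against 16% of all genes. The median log2 fold change of the 49 was 2.01, with a range from -0.06 to 7.55, and the median of all genes tested was -0.04. The lowest day 5 library lay above the highest day 0 library for 46 of the 49, against 35.7% of all genes, and wholly below for none, against 38%. Summed over the 49 genes, the WT libraries held 2935 and 2963 CPM at day 0 and 10986 and 9298 CPM at day 5, which is 3.44 times as much. The 6 genes that did not pass were *Gins4*, *Cdt1*, *Pola2*, *Pold1*, *Rpa1* and *Timeless*. Each of these 6 belongs to a complex or step whose other members on the list mostly rose.

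**Figure D1:**
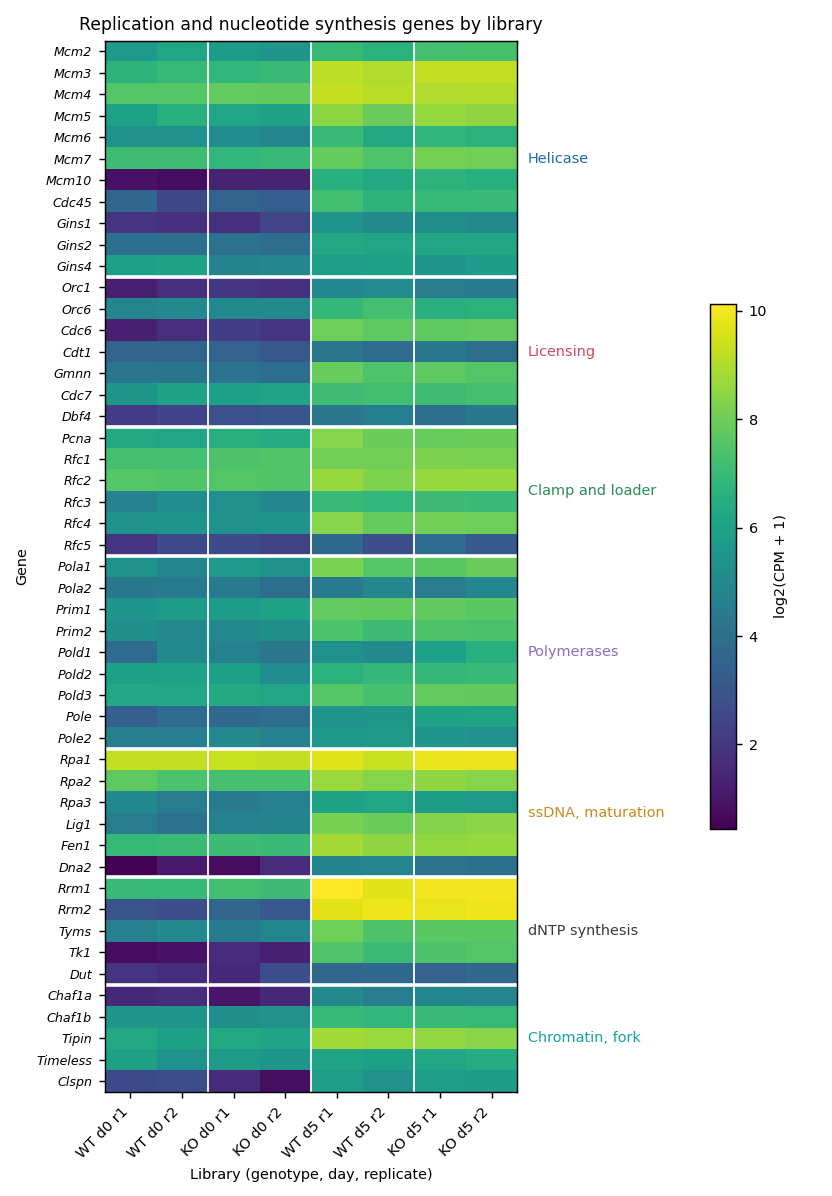
Level of the 49 genes in each of the 8 libraries as log2(CPM + 1), in rows grouped by role and columns ordered by day, genotype and replicate. The day 5 columns are brighter for nearly every row, while *Gins4*, *Cdt1*, *Pola2* and *Timeless* change little in shade and *Rrm1* and *Rrm2* reach the highest levels.

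Of the 11 helicase genes, 10 rose in WT, with a median log2 fold change of 1.93. *Mcm10*, a factor needed to start the assembled helicase, changed most: its 2 WT libraries measured 0.89 and 0.68 CPM at day 0, or 5 and 3 counts, and 94.9 and 78.6 CPM at day 5 (log2 fold change 6.73, SE 0.28, FDR 1.32e-09). It went from the edge of detection to a level that both libraries measured well. *Mcm10* lies on the minus strand of chromosome 2, from 4989714 to 5012791 (GENCODE M21, GRCm38, as for all genes placed here). At the other end *Gins4*, which encodes the GINS subunit SLD5, measured 59.9 and 63.5 CPM at day 0 and 56.8 and 61.4 CPM at day 5, with overlapping groups and a log2 fold change of -0.06 (SE 0.17, FDR 0.783). With an offset for GC content and length that value became -0.47 with an FDR of 0.0357, so its call depends on the correction. The remaining GINS genes on the list passed. *Gins1* rose by a log2 fold change of 3.82 (SE 0.33) and *Gins2* by 2.30 (SE 0.17). For *Gins2*, 67.3% of the exon bases lie in exons of *Gse1* on the other strand, and the strand setting of the counts is not given in the sources used here. *Cdc45*, the remaining part of the active helicase, rose from 11.4 and 4.75 CPM to 145 and 104 CPM (log2 fold change 3.90, SE 0.29).

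All 6 ring subunits rose, with log2 fold changes from 0.54 to 2.25. *Mcm3* rose by a log2 fold change of 2.25 (SE 0.13), *Mcm5* by 1.93 (SE 0.21), *Mcm4* by 1.62 (SE 0.12) and *Mcm6* by 1.37 (SE 0.21). *Mcm2* followed at 0.84 (SE 0.19, FDR 0.00259) and *Mcm7* at 0.54 (SE 0.14, FDR 0.00812). *Mcm7* was already at 140 and 139 CPM in the WT libraries at day 0 and stood at 231 and 174 CPM at day 5. Its call was lost when the second WT library of day 0 (FDR 0.0512) or the first of day 5 (log2 fold change 0.32, FDR 0.0679) was left out.

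Of the 7 origin licensing genes 6 rose in WT, and the median was 2.47 on the log2 scale. *Cdc6*, the ATPase that helps load the MCM ring, measured 1.43 and 2.49 CPM in WT at day 0 and 252 and 209 CPM at day 5 (log2 fold change 6.90, SE 0.24, FDR 3.32e-10). *Cdc6* lies on chromosome 11, from 98907801 to 98923940 on the plus strand. Its partner in loading, *Cdt1*, measured 10.9 CPM in both day 0 libraries and 17.8 and 13.3 CPM at day 5, a difference that did not pass (log2 fold change 0.52, SE 0.28, FDR 0.136). The first of these loading factors passed and the second did not, and the difference between them was not tested. *Gmnn*, which encodes the inhibitor of CDT1, rose from 17.9 and 17 CPM to 231 and 174 CPM (log2 fold change 3.54, SE 0.18). The origin recognition subunits *Orc1* and *Orc6* rose by 4.03 (SE 0.31) and 2.19 (SE 0.17) on the log2 scale. The kinase gene *Cdc7* rose by 1.36 (SE 0.17) and that of its activating partner, *Dbf4*, by 2.47 (SE 0.30), from 3.40 and 4.30 CPM to 18.7 and 23.9 CPM.

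All 6 sliding clamp and clamp loader genes rose in WT, with a median log2 fold change of 1.61. *Rfc4*, a small subunit of the loader, showed the largest change, from 40.8 and 43.0 CPM to 332 and 227 CPM (log2 fold change 2.74, SE 0.18, FDR 8.63e-08). *Rfc1*, the large subunit, showed the smallest, from 155 and 148 CPM to 265 and 266 CPM (0.81, SE 0.12, FDR 9.46e-05). Day 0 and day 5 did not overlap for either gene. *Pcna*, the clamp itself, rose from 78.7 and 71.2 CPM to 331 and 248 CPM (1.95, SE 0.16). The call of *Rfc5* was the weakest: 2.68 and 4.97 CPM at day 0 and 12.2 and 5.78 CPM at day 5 gave a log2 fold change of 1.28 (SE 0.46, FDR 0.0343), which fell to 0.62 (FDR 0.384) without the first WT library of day 5 and to 0.88 (FDR 0.234) without the first of day 0.

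Among the 9 polymerase and primase genes, 7 rose in WT and the median log2 fold change was 1.24. Polymerase alpha and its primase showed both extremes. *Pola1*, the catalytic subunit, rose from 40.2 and 28.9 CPM to 290 and 190 CPM (log2 fold change 2.79, SE 0.23, FDR 7.03e-07), and the primase genes *Prim1* and *Prim2* rose by 2.16 (SE 0.15) and 2.12 (SE 0.17). *Pola2*, the regulatory subunit of the same enzyme, measured 18.8 and 20.1 CPM at day 0 and 20.5 and 29.4 CPM at day 5 (0.35, SE 0.26, FDR 0.284) and did not pass. Of the polymerase delta genes, *Pold3* rose by 1.24 (SE 0.14) and *Pold2* by 0.82 (SE 0.21). *Pold1* (chromosome 7, from 44532746 to 44548849, minus strand), the catalytic subunit of delta, was uneven between the day 0 replicates, at 13.1 and 32.6 CPM, and reached 38.6 and 31.1 CPM at day 5 (0.64, SE 0.34, FDR 0.145). Leaving out the second WT library of day 0 gave 1.42 (FDR 0.00707) and leaving out the first gave 0.10, so the day 0 value rests on which library is used; with a GC and length offset it was 1.17 (FDR 0.00879). The polymerase epsilon genes *Pole* and *Pole2* rose by 1.99 (SE 0.21) and 1.08 (SE 0.18).

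Genes for single-stranded DNA binding and for finishing the lagging strand spanned a wide range, with 5 of 6 called and a median of 1.53. *Dna2*, a nuclease and helicase that trims long flaps, measured 0.36 and 1.13 CPM in WT at day 0, which is 2 and 5 counts, and 27.0 and 28.0 CPM at day 5 (log2 fold change 5.24, SE 0.50, FDR 2.71e-06). *Lig1*, the ligase that seals Okazaki fragments, rose from 21.6 and 15.6 CPM to 285 and 246 CPM (3.82, SE 0.17). *Fen1*, the flap endonuclease, rose by 1.70 (SE 0.13), although 84.2% of its exon bases lie in exons of genes on the other strand. *Rpa1*, the large subunit of the single-strand binding complex, had the highest level per length of the list at day 0, as given further on. It measured 608 and 611 CPM at day 0 and 804 and 641 CPM at day 5 (0.25, SE 0.12, FDR 0.118), although without the second WT library of day 5 the difference was 0.41 (FDR 0.00782). The partner subunits *Rpa2* and *Rpa3* rose by 0.95 (SE 0.15) and 1.37 (SE 0.18).

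Deoxynucleotide synthesis genes had the highest median of the 7 groups, 3.0 in WT, and all 5 rose. *Tk1* (chromosome 11, from 117815526 to 117826092, minus strand), the thymidine kinase of S phase, measured 0.72 and 0.90 CPM at day 0, which is 4 counts in each WT library, and 176 and 132 CPM at day 5 (log2 fold change 7.55, SE 0.29, FDR 7.19e-10). *Rrm2* (chromosome 12, from 24708241 to 24714146, plus strand), the regulated small subunit of ribonucleotide reductase, rose from 6.80 and 5.88 CPM to 846 and 933 CPM (7.12, SE 0.20, FDR 1.04e-10). The large subunit *Rrm1* rose from 126 and 120 CPM to 1120 and 852 CPM (3.0, SE 0.15). Per length of all annotated exons joined (11012 bases for *Rrm1*, 2771 for *Rrm2*), *Rrm1* stood above *Rrm2* at day 0, at 11.2 against 2.29 CPM per kb. At day 5 *Rrm1* stood below, at 89.5 against 321 CPM per kb. That order depends on the length used. In mean CPM *Rrm1* was at 986 and *Rrm2* at 889 in WT at day 5, with overlapping libraries. *Tyms*, thymidylate synthase, rose by 2.92 (SE 0.23). *Dut*, which removes dUTP, was the least changed of the group, from 2.86 and 2.26 CPM to 11.5 and 12.5 CPM (2.20, SE 0.48, FDR 0.00209). As a group these 5 genes summed to a mean of 161 CPM (SD 0.83, n = 2) in WT at day 0 and 2254 CPM (SD 216, n = 2) at day 5, a ratio of 14.0.

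Of the 5 genes for chromatin assembly and for the fork protection complex, 4 rose in WT, with a median of 2.63. *Chaf1a*, a subunit of the histone chaperone that follows the fork, rose from 1.97 and 2.26 CPM to 31.0 and 22.4 CPM (log2 fold change 3.66, SE 0.33, FDR 1.56e-06), and 52.5% of its exon bases lie in exons of *Ubxn6* on the other strand. Its partner *Chaf1b* rose by 1.43 (SE 0.14). TIPIN and TIMELESS form the fork protection pair. *Tipin* rose from 77.3 and 59.2 CPM to 443 and 403 CPM (2.63, SE 0.16), whereas *Timeless* measured 60.8 and 41.6 CPM at day 0 and 67.9 and 60.7 CPM at day 5 (0.32, SE 0.19, FDR 0.187). *Timeless* passed with the GC and length offset (0.61, FDR 0.0292) and without the first WT library of day 0 (0.63, FDR 0.0401). *Clspn*, which couples the fork to checkpoint signalling, rose by 3.14 (SE 0.29).

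The libraries labelled KO were compared over the same interval. Here 48 of the 49 genes rose and 1, *Pola2*, did not pass (log2 fold change 0.56, SE 0.25, FDR 0.076), while 26.2% of all genes were called higher and 50.2% were called in either direction. The rise was over 2-fold for 42 of the 49, against 17.4% of all genes. The median log2 fold change was 1.80, with a range from 0.56 to 6.58, and the median of all genes tested was -0.05. All 49 genes had both day 5 libraries above both day 0 libraries, against 38.2% of all genes, while 39.7% of all genes had them below. The summed level was 2997 and 2907 CPM at day 0 and 10484 and 10622 CPM at day 5, a ratio of 3.57. The medians by role were 3.04 for deoxynucleotide synthesis, 2.34 for the helicase, 2.30 for chromatin and fork protection, 1.80 for polymerases, 1.57 for licensing, 1.36 for single-strand binding and maturation and 1.31 for the clamp and its loader. The strongest risers were again *Rrm2* (6.58, SE 0.19), *Tk1* (6.52, SE 0.24), *Cdc6* (6.03, SE 0.21) and *Mcm10* (5.89, SE 0.23). *Gins4*, flat in WT, rose in KO by 0.84 (SE 0.17, FDR 0.00129), from 26.1 and 29.2 CPM to 44.0 and 54.5 CPM, although with the GC and length offset the value was 0.36 and the call was lost (FDR 0.096). *Cdt1* (0.91, SE 0.27, FDR 0.013), *Rfc5* (1.16, SE 0.41, FDR 0.0326), *Pole2* (0.58, SE 0.17, FDR 0.0154) and *Timeless* (0.67, SE 0.19, FDR 0.0107) passed in KO but each lost its call in some of the 17 alternatives, 3, 5, 6 and 1 of them respectively. Leaving out the second KO library of day 0 ended the call of *Cdt1*, *Rfc5* and *Pole2*, leaving out the first ended that of *Rfc5* and gave one to *Pola2* (0.89, FDR 0.0309), leaving out the first KO library of day 5 ended that of *Cdt1*, *Rfc5* and *Pole2*, and leaving out the second ended that of *Timeless* (FDR 0.105). *Rfc5* was at 0.77 without the first KO library of day 5, and *Pole2* was at 0.30 at equal depth.

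The responses in both genotypes lay close together gene by gene. Across the 49 genes, the log2 fold changes in WT and in KO, which share no library, had a Pearson r of 0.942 and a Spearman rho of 0.912, as a description of genes that are not independent. They were within 1 log2 unit of each other for 43 genes and within 0.5 for 30. The change was smaller in KO for 26 genes and larger for 23. Among the largest gaps, *Clspn* rose by 3.14 in WT and 5.13 in KO, *Dna2* by 5.24 and 3.67, and *Orc1* by 4.03 and 2.91, while *Pold1* was at 0.64, which did not pass, and 1.80. The tests of these gaps are given with the interaction of genotype and day: none passed in the edgeR fit used throughout, and that of *Clspn* passed in 3 alternatives: DESeq2, edgeR without the filter on low counts, and edgeR at equal depth.

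**Figure D2:**
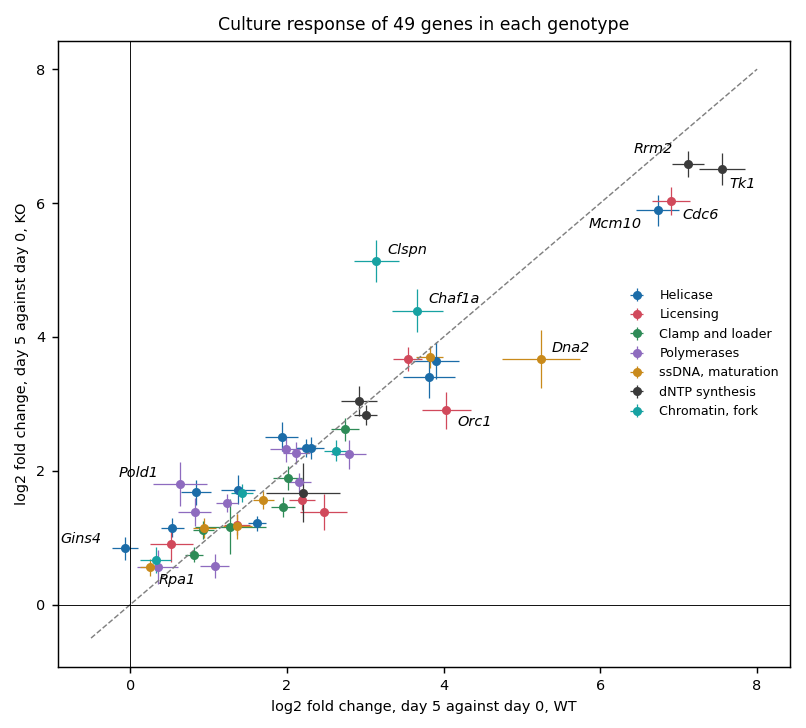
Log2 fold change of day 5 against day 0 in WT (x axis) and in the libraries labelled KO (y axis) for the 49 genes, coloured by role, with standard errors as bars and the line of equality dashed. *Tk1*, *Rrm2*, *Cdc6* and *Mcm10* lie at the upper right, *Clspn* lies above the line and *Dna2* below it, and *Gins4* sits at -0.06 in WT and 0.84 in KO.

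Genotype was compared next within each day. At day 0, 2 of the 49 genes passed and both were lower in the libraries labelled KO, where 1.8% of all genes passed in either direction and 0.889% were lower. *Gins4* (chromosome 8, from 23226616 to 23237659, minus strand) measured 59.9 and 63.5 CPM in WT and 26.1 and 29.2 CPM in KO (-1.16 on the log2 scale, SE 0.17, FDR 0.004). Both KO libraries were below both WT libraries and each pair was tight. The FDR rose to 0.0552 without the first WT library of day 0 and to 0.0611 without the second. *Clspn* (chromosome 4, from 126556935 to 126593903, plus strand) measured 5.19 and 5.88 CPM in WT, from 29 and 26 counts, and 2.06 and 0.73 CPM in KO, from 24 and 4 counts (-1.78 on the log2 scale, SE 0.39, FDR 0.0357). This call rested on few counts and was lost in 7 of 17 alternatives, with FDR values up to 0.228 without the second WT library of day 0. The estimate was -3.03 when libraries were thinned to equal depth and -2.87 without the first KO library of day 0. *Clspn* also lost its call without the first WT library of day 0, the second KO library of day 0 or either KO library of day 5.

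The other 47 genes did not pass at day 0. The lowest FDR among them belonged to *Tk1*, which measured 0.72 and 0.90 CPM in WT and 2.14 and 1.47 CPM in KO (log2 fold change 1.23, SE 0.48, FDR 0.263). The median over the 49 was 0.08, beside 0.00 over all genes, and leaving out 1 library gave 0.0068 to 0.112. The KO libraries lay wholly above WT for 16 of the 49 genes and wholly below for 10, where 21.7% of all genes did so in each direction. By role the medians were 0.46 for deoxynucleotide synthesis, 0.20 for licensing, 0.20 for the clamp and its loader, 0.055 for polymerases, 0.026 for single-strand binding and maturation, -0.013 for the helicase and -0.19 for chromatin and fork protection. The summed level of the 49 genes was 2949 CPM (SD 19.6, n = 2) in WT and 2952 CPM (SD 64.0, n = 2) in KO.

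At day 5 none of the 49 passed in the same edgeR fit, where 1.63% of all genes did, and DESeq2 called 1. At an unadjusted p under 0.05 there were 11 of the 49, against 14.1% of all genes. The lowest FDR belonged to *Pold1*, with 38.6 and 31.1 CPM in WT and 62.5 and 91.8 CPM in KO (log2 fold change 1.14, SE 0.32, FDR 0.115). The KO libraries were both above the WT libraries but differed between themselves. *Pold1* passed with DESeq2 (FDR 0.0173), without the filter on low counts (FDR 6.53e-05) and with only the 4 day 5 libraries (FDR 0.0348), and it was at 0.81 (FDR 0.309) with the GC and length offset. *Pole* followed with 43.2 and 46.3 CPM in WT and 64.7 and 68.2 CPM in KO (0.57, SE 0.18, FDR 0.157). *Orc6* went the other way, with 119 and 148 CPM in WT and 91.6 and 100 CPM in KO (-0.47, SE 0.15, FDR 0.166). *Mcm7*, not called with all libraries (0.39, SE 0.14, FDR 0.218), was called without the first WT library of day 5.

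GC content was set beside the genotype differences. The GC content of the 49 genes, taken from the longest transcript, ran from 34.2% for *Rpa3* to 61.0% for *Pold1*, with a median of 49.1%. Across the 49 genes GC content and the day 5 difference of KO from WT had a Pearson r of 0.577 and a Spearman rho of 0.565, and at day 0 of -0.20 and -0.33. For the interaction of genotype and day they were 0.44 and 0.53. The same values were not computed over all genes, so a trait of the list and one of the libraries cannot be told apart. The 49 genes share the same 4 libraries at each day, and the part of GC content in the single differences was not tested beyond the offset. The KO libraries lay wholly above WT at day 5 for 13 genes and wholly below for 9, against 25% and 20.7% of all genes. The summed level was 10142 CPM (SD 1193, n = 2) in WT and 10553 CPM (SD 97.5, n = 2) in KO, a gap smaller than the spread of the WT libraries.

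**Figure D3:**
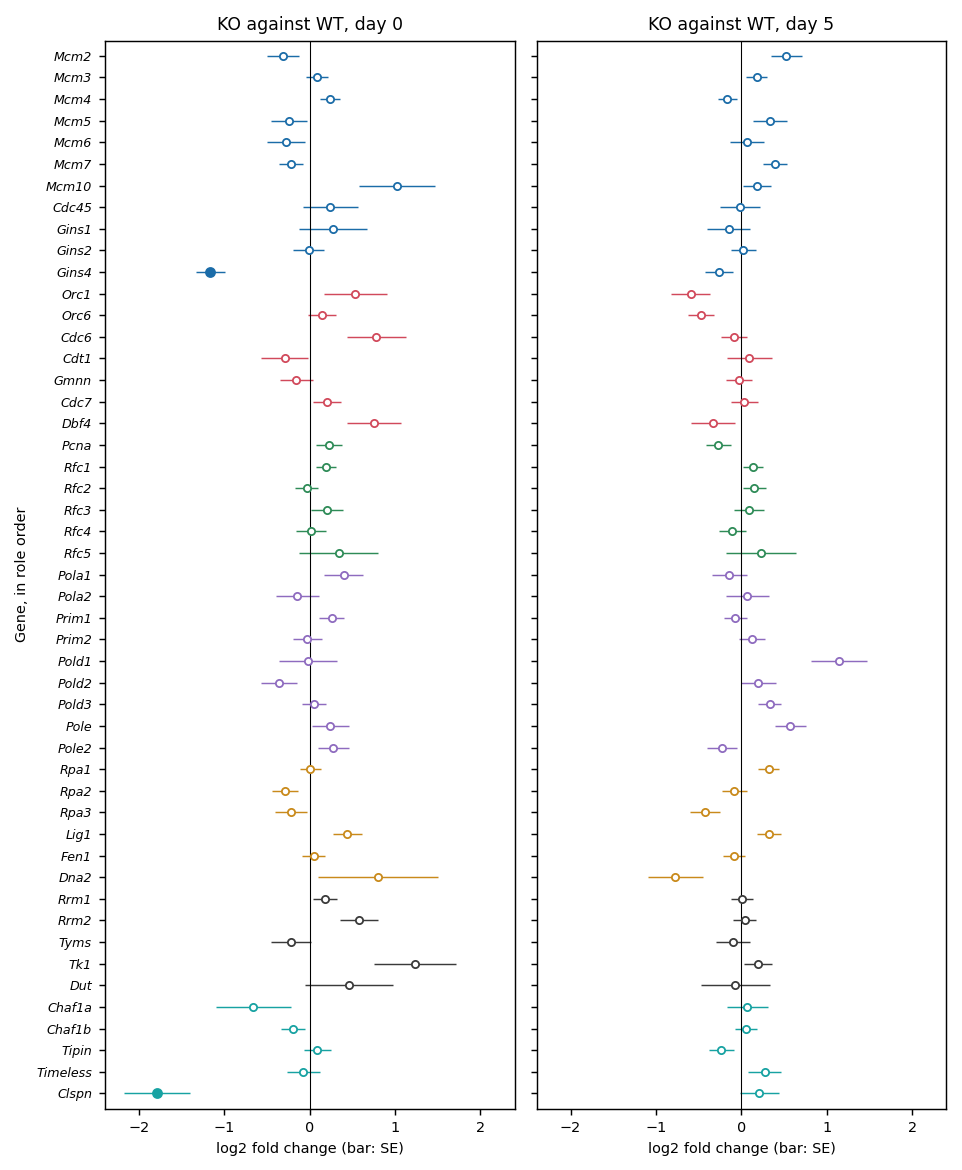
Log2 fold change of libraries labelled KO against WT at day 0 (left) and day 5 (right) for each of the 49 genes in role order, with standard errors as bars. Filled points passed the test and open points did not: *Gins4* and *Clspn* are the filled points at day 0, and day 5 has none, with *Pold1* farthest to the right at 1.14.

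Whether the culture response differed between genotypes was tested by the interaction of genotype and day. None of the 49 genes passed in the edgeR fit used throughout, where 0.159% of all genes did (0.0794% in each direction), and 11 had an unadjusted p under 0.05, against 12.4% of all genes. The lowest FDR belonged to *Clspn* (difference in log2 fold change, KO minus WT, 1.99, SE 0.45, FDR 0.122), which did pass with DESeq2 (FDR 0.00835), without the filter on low counts (FDR 0.00467) and at equal depth (FDR 0.0154). At day 5 its levels were 56.3 and 40.7 CPM in WT and 57.6 and 55.1 CPM in KO, so the low KO value at day 0 was not seen at day 5. *Gins4* came next (0.90, SE 0.24, FDR 0.168), and its day 5 levels of 56.8 and 61.4 CPM in WT and 44.0 and 54.5 CPM in KO still did not overlap but did not pass (-0.26, SE 0.17, FDR 0.529). *Mcm2* was next: it measured 50.1 and 71.7 CPM in WT and 53.3 and 43.7 CPM in KO at day 0, and 120 and 96.9 CPM against 155 and 157 CPM at day 5 (0.84, SE 0.26, FDR 0.230). The remaining gaps noted above were -1.57 (SE 0.76, FDR 0.426) for *Dna2*, 1.16 (SE 0.47, FDR 0.343) for *Pold1* and -1.13 (SE 0.44, FDR 0.326) for *Orc1*. In 5 genes, *Mcm4*, *Orc1*, *Orc6*, *Pcna* and *Pole2*, both KO libraries were above WT at day 0 and below it at day 5, and in *Mcm7*, *Pold2* and *Chaf1b* the order was the opposite; 4.27% and 4.04% of all genes tested had these patterns. The interaction did not pass for any of these 8.

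**Figure D4:**
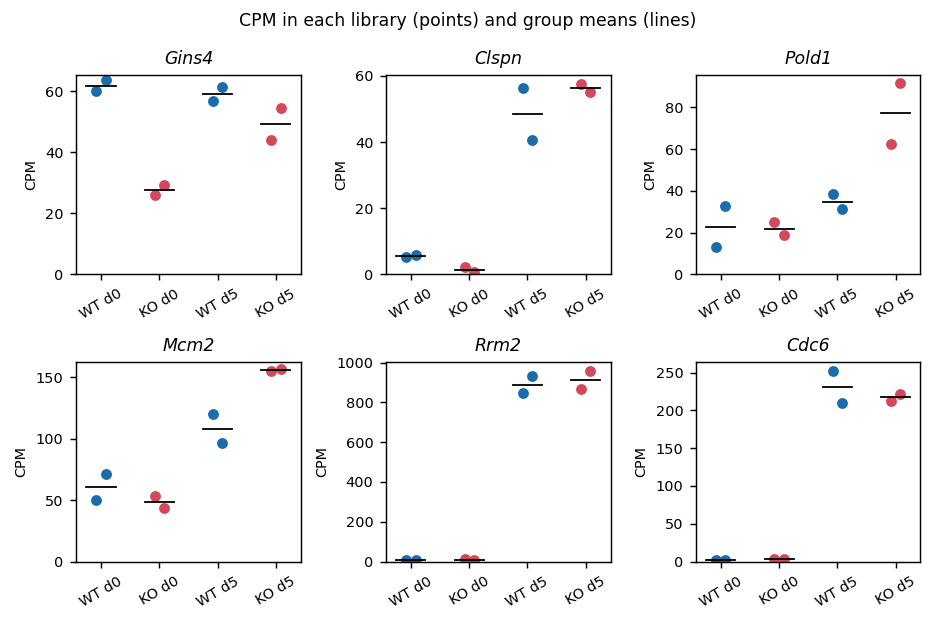
CPM of *Gins4*, *Clspn*, *Pold1*, *Mcm2*, *Rrm2* and *Cdc6* in each library (points; blue WT, red KO) with group means (lines), each on a linear axis from 0. *Gins4* is low in both KO libraries of day 0, *Pold1* is highest in the KO libraries of day 5, and *Rrm2* and *Cdc6* are near 0 at day 0 in both genotypes.

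Levels were compared between genes as CPM per kilobase of exon. The length was that of all annotated exons of a gene joined, which can exceed that of the transcript in these cells. Orders and ratios between genes depend on this choice, and other lengths were not tried. In WT at day 0 the median gene stood at 8.40 CPM per kb, the lowest was *Mcm10* at 0.10 and the highest *Rpa1* at 109, a span of 1068-fold. At day 5 the median was 34.9 CPM per kb, the lowest was *Rfc5* at 1.92 and the highest *Rrm2* at 321, a span of 167-fold. In the KO libraries the span went from 678-fold to 171-fold. In WT 10 genes were under 5 CPM at day 0 and none at day 5. Mean log2 CPM in WT at day 0 was set against the log2 fold change in the separate KO libraries. Over the 49 genes the Pearson r was -0.66 and the Spearman rho -0.563. The fold change subtracts the KO level at day 0 of the same genes, so a negative relation is in part built in. The relation was not computed over all genes, so no trait of the list is read from it.

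By this measure the subunits of a complex did not have equal levels. Within the MCM ring in WT at day 0, *Mcm4* stood highest at 51.1 and 53.1 CPM per kb, apart from *Mcm7* (31.5 and 31.5) and *Mcm3* (27.5 and 32.6), which overlapped. *Mcm5* followed at 15.8 and 24.1 CPM per kb, and *Mcm2* and *Mcm6* were lowest and overlapped, with means of 8.75 and 8.43. At day 5 *Mcm4* (168 and 153) and *Mcm3* (152 and 133) were highest, then *Mcm5*, *Mcm7*, and *Mcm6* and *Mcm2*, which overlapped again. The ratio of the highest to the lowest ring subunit was 6.18 at day 0 and 10.3 at day 5 in WT, and 8.89 and 7.19 in KO. In the GINS complex that ratio fell in both genotypes. Including *Gins3*, which was not on the list, the ratio of the highest to the lowest was 25.9 in WT at day 0, with *Gins4* at 44.4 and 47.1 and *Gins1* at 1.89 and 1.64 CPM per kb, and 2.43 at day 5. In KO it was 8.88 at day 0 and 1.99 at day 5. The 3 RPA genes also drew closer in WT, from a ratio of 4.75 to 2.17, and in KO from 5.51 to 3.63. In the clamp loader *Rfc5* stood far below the others, at 0.57 and 1.06 CPM per kb in WT at day 0 where *Rfc2* had 30.3 and 28.5, and the ratio of the highest to the lowest rose from 35.9 to 94.7.

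**Figure D5:**
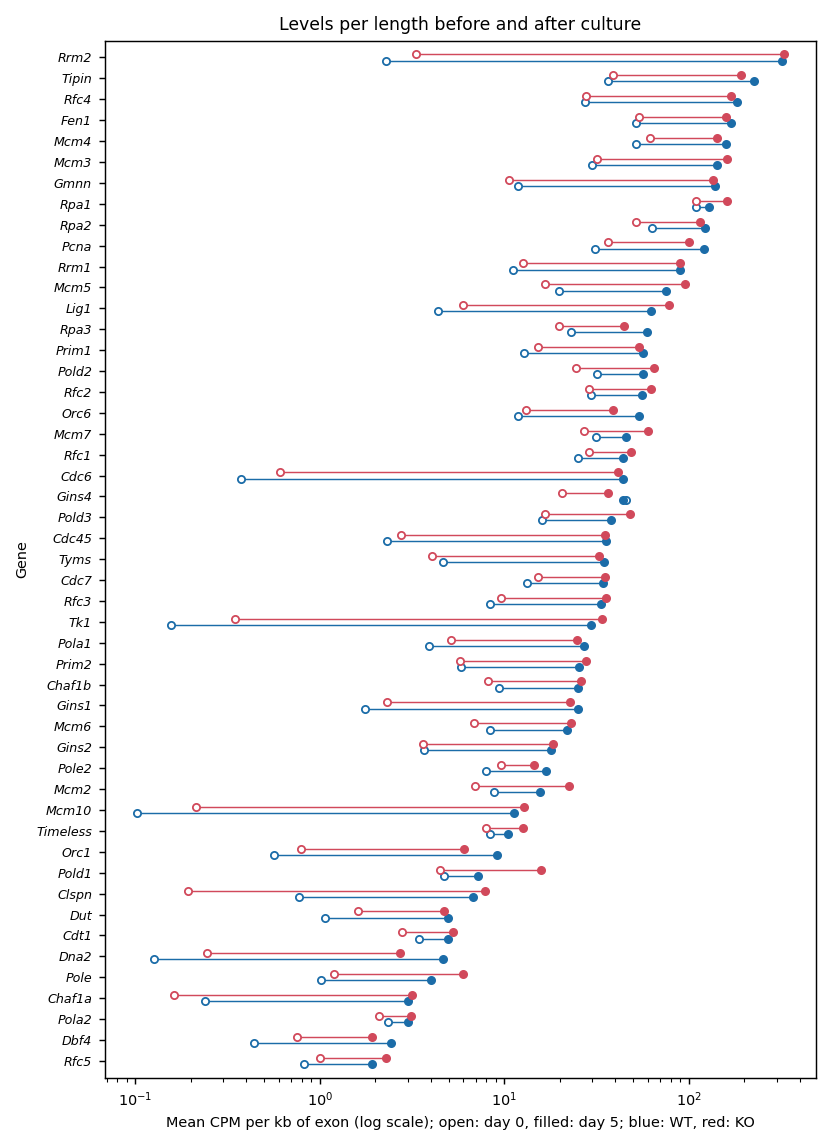
Mean CPM per kb of exon (log axis, n = 2 libraries per point) of the 49 genes at day 0 (open) and day 5 (filled) in WT (blue) and KO (red), ordered by the WT level at day 5. *Rrm2* is highest at 321 and *Rfc5* lowest at 1.92 in WT at day 5, and the longest lines belong to *Tk1*, *Rrm2*, *Cdc6* and *Mcm10*.

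A further 80 genes of the same pathways, not on the list, were read for comparison, and 79 were tested. In WT culture 43 of them rose, 7 fell and 29 did not pass, with a median log2 fold change of 0.65, and in KO 42 rose, 6 fell and 31 did not pass, with a median of 0.56. Over all genes tested 24.7% were called higher and 23.6% lower in WT, and 26.2% and 24% in KO, and the counts for the smaller groups of these genes stand beside the same shares. Among the 14 other origin and helicase loading factors, 8 rose and none fell in WT, led by *Ticrr* (3.0), which helps CDC45 onto the origin, and *Mcm8* (1.93). In KO 9 of these 14 rose and 3 fell, namely *Mcm9* (-1.24, FDR 0.0136), *Donson* (-1.12, FDR 0.00211) and *Mcmbp* (-0.56, FDR 0.00375). Of the origin recognition subunits outside the list *Orc3* rose by 0.68 (FDR 0.0029), but *Orc2* (0.11, FDR 0.66), *Orc4* (0.25, FDR 0.086) and *Orc5* (0.20, FDR 0.28) did not pass. Among the 11 further polymerase, clamp and RNase H2 genes, 8 rose and *Chtf8* fell (-0.79, FDR 0.046). *Pclaf*, a PCNA-binding factor, rose from 3.04 and 2.71 CPM to 693 and 542 CPM (7.73), a larger estimate than that of any of the 49. *Atad5*, which unloads PCNA, followed at 2.64.

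The further nucleotide enzymes held genes of both directions. Of 11 other deoxynucleotide genes 5 rose in WT, among them *Dck*, deoxycytidine kinase, at 1.65, and 2 fell, namely *Rrm2b* (-0.74, FDR 0.01), the alternative small subunit of ribonucleotide reductase, and the mitochondrial kinase gene *Dguok* (-0.35, FDR 0.036). *Samhd1*, which breaks down deoxynucleotides, passed between genotypes at day 0: it measured 636 and 640 CPM in WT and 1108 and 1024 CPM in KO (0.74, FDR 0.009). At day 5 it was at 1687 and 1659 CPM in WT and 1756 and 1384 CPM in KO, which overlapped. In pyrimidine synthesis *Umps* (0.56) and *Ctps* (0.72) rose and *Cad* (-0.84) and *Ctps2* (-0.60) fell in WT. In purine synthesis 4 of 10 rose, with *Paics* at 1.17 and *Gmps* at 1.08. Of the 5 tested folate enzymes 4 rose, led by *Mthfd2* at 2.13 and *Shmt1* at 1.5, and *Mthfd1* fell (-0.46, FDR 0.043).

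Factors that act on chromatin behind the fork included the other 2 of the 80 genes that passed between genotypes. Of the 79 tested, 1 passed at day 0 and 2 at day 5, where 1.8% and 1.63% of all genes did. *Uhrf1*, which recognises newly replicated DNA, measured 66.7 and 60.2 CPM in WT and 116 and 146 CPM in KO at day 5 (log2 fold change 1.04, FDR 0.017). *Dnmt1*, the maintenance DNA methyltransferase that UHRF1 recruits, measured 118 and 97.8 CPM in WT and 191 and 234 CPM in KO at day 5 (0.98, FDR 0.0093). Both were higher in both KO libraries than in either WT library. In WT culture 5 of this group of 10 rose, led by *Dtl* (5.16), a substrate adaptor that binds PCNA, and the histone chaperone gene *Asf1b* (3.66), and *Dnmt1* itself did not pass (0.19, FDR 0.35).

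Of the 13 genes of the E2F and retinoblastoma families 7 rose and 1 fell in WT. *E2f8* and *E2f7*, which encode the atypical repressors of the family, had the largest estimates. *E2f8* had 1 count over both WT libraries at day 0 and 175 at day 5, a ratio of 179 (exact 95% interval of the counts 31.7 to 7100). *E2f7* had 3 counts and then 117, a ratio of 39.8 (13.3 to 196); these intervals cover counting error only. Of the activators *E2f1* rose by 2.42 and *E2f2* by 1.61, and the partner gene *Tfdp1* rose by 2.11. *Rb1*, the retinoblastoma gene, fell (-0.56, FDR 0.0097), *Rbl1* rose by 0.71 and *Rbl2* did not pass (0.13, FDR 0.66).

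Genes with and without an E2F word in the promoter window had similar median changes. In WT the median log2 fold change was 1.97 for the 16 genes with a word, with a range from 0.52 to 6.90, and 2.07 for the 24 without, with a range from 0.25 to 7.55. In KO the medians were 1.86 and 1.62. For the CCAAT box the medians in WT were 2.08 for the 22 genes with it and 1.56 for the 18 without. These are descriptions over genes and carry no test. Of the sequences shown, *Cdc6* rose by 6.90, *Rrm1* by 3.0 and *Mcm3* by 2.25 in WT, and *Rrm2*, whose window holds a CCAAT box but none of the 3 E2F words, rose by 7.12.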

How the data were processed

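Total RNA of splenic CD8+ T cells was sequenced in 8 libraries. Per the labels the RNA was extracted with Trizol and the libraries were made with an NEBNext Ultra kit; the study's methods name purified mRNA. The deposited values are raw counts of reads per gene symbol, which the authors made with HISAT2 2.1.0 on mm10 and HTSeq (0.11.1 in the submitters' processing notes); the strand setting is not given in the sources used here. Rows that name no gene were left out of library sizes, and they held 27.5% to 33.7% (no feature) and 31.8% to 37.4% (not unique) of counted reads.

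Counts were normalised by TMM, filtered with filterByExpr (minimum count 10) and fitted with edgeR 4.0.16 (R 4.3.3, legacy quasi-likelihood test) in 1 model of 4 groups over all 8 libraries. The common biological coefficient of variation was 15.0%. Genes passed at a Benjamini-Hochberg FDR under 0.05 over 12597 genes. The test was tried on simulated counts for the day 5 against day 0 comparison in WT: of 200 genes changed 2-fold among 12597, 47% were recovered, with 7 false calls, and of 200 changed 3-fold, 74.5%, with 8. In the data 6081 genes were called in that comparison, so these rates need not hold there. Gene models, exon lengths and overlaps came from GENCODE M21 (GRCm38), and promoters from RefSeq. Protein sequences were not analysed here. Some genes of the comparison lists are not reported here. The genes, lists and roles were chosen with earlier results of these data known. Values per library are given for the largest and smallest change in WT of each role group, for genes that passed between genotypes and, where none did, for the 3 with the lowest FDR; of pathway genes outside the list, the 2 largest of each sub-list, those called against its direction and those called between genotypes; any other was chosen after its values were seen. Alternatives were DESeq2 1.42.0 and its size factors, unscaled library totals, no filter, the 4 libraries compared only, a replicate block, the newer edgeR form, a GC and length offset (GC for 96.9% of genes), equal depth, each library left out in turn and, added after the data were seen, leaving out 3 genes whose exons lie mostly in exons of the other strand.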

Additional observations from a re-analysis of the deposited data

How the results depend on the processing

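The 43 genes that passed in WT culture were 40 to 46 under the alternatives and the 48 in KO culture 44 to 48, within 1.5 times of the values given. With the GC and length offset the 46 in WT included *Gins4* as lower. Medians in culture were 1.87 (WT) and 1.62 (KO) on unscaled library totals and 1.81 and 1.66 with the GC and length offset, where the median of all genes moved to -0.17 and -0.23, and to -0.18 and -0.19. Leaving out 1 library gave 1.95 to 2.26 in WT and 1.76 to 1.93 in KO. At day 0 the 2 genes became 1, *Gins4*, with only the 4 libraries compared and with the newer edgeR form; leaving out 1 library gave 0 to 2, with 0 without either WT library of day 0 and 1 without the second KO library of day 0 or either KO library of day 5. At day 5 the 0 became 1, *Pold1*, without the filter, with only the 4 libraries compared and with DESeq2; leaving out 1 library gave 0 to 1, and a median of -0.082 without the second WT library of day 5 to 0.19 without the first. For the interaction the 0 became 1, *Clspn*, without the filter, with DESeq2 and at equal depth, and stayed 0 with each library left out. Without the 3 genes that overlap exons of the other strand, 40 passed in WT culture, 45 in KO culture and 2 at day 0. In culture all 49 genes were followed singly. In the genotype comparisons and the interaction only the 3 with the lowest FDR in each were followed, so other genes are not in this tally. Of the alternative values of the genes followed, 1771 kept their side of the threshold, 31 lost a call and 14 gained one, with no change of sign among called values. Except where the construction of an alternative shows it, the cause of these changes was not tested.

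The replicate numbers name no shared animal, and same-numbered libraries deviated together with correlations of 0.0044 and -0.017 between genotypes and 0.12 and 0.23 between days. A replicate block gave 2, 0, 43, 48 and 0 genes for day 0, day 5, WT culture, KO culture and the interaction, as without it.

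With 2 libraries per group and 4170126 counts in the shallowest, 3 counts correspond to up to 0.72 CPM, and differences of genes at or near that level at day 0 (*Dna2*, *Mcm10*, *Tk1*, *E2f7*, *E2f8*) are imprecise.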

Other observations

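*Supt16*, which encodes a subunit of the histone chaperone FACT and was read as 1 of the 80 further genes, stood apart by replicate; it was chosen after its values were seen. It measured 51.0 CPM in the first WT library of day 0 and 63.8 CPM in the first WT library of day 5, and between 195 and 321 CPM in the other 6 libraries. Its log2 fold change was 0.54 in WT culture (FDR 0.47) and 0.76 for KO against WT at day 0 (FDR 0.63). *Ssrp1*, the partner subunit, measured 275 and 332 CPM in WT at day 0 and 414 and 354 CPM at day 5, without such a gap.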
